A study of Mus musculus with 4 samples.

Results

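CD8 T cells of aged gonadal white adipose tissue (gWAT) were taken from 4 single-cell libraries, each cell chosen by its own transcript counts. A cell was a member if it held at least 1 unique molecular identifier (UMI, 1 captured transcript) of Cd3e and Cd3g together, at least 2 of Cd8a and Cd8b1 together, and none of Cd4. It also had to hold no Csf1r, at most 1 UMI each of Trdc, Pdgfra and Cd79a, and under 10 of Mzb1, genes of macrophages, gamma-delta T cells, stromal progenitors, B cells and plasma cells. Of 14982 cells kept in the series, 203 were members. The gate read the same counts that are described below, so the gate genes are no result, and the contrasts between sets of members or between gates are descriptions with no test.

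CD8 T cells read peptides on class I molecules through a T cell receptor, with the CD8 alpha and beta chains (Cd8a, Cd8b1) as co-receptor and the CD3 chains carrying the signal. Resting cells that recirculate express Ccr7, which guides entry into lymph nodes, and the transcription factor Lef1. Cells that have met antigen can carry granzymes, perforin (Prf1) and the chemokine Ccl5, and cells with granzyme K (Gzmk), Eomes and Tox accumulate in many tissues of old mice.

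The cells came from the stromal vascular fraction (SVF) of gWAT of 18-month-old male p16-CreERT2/R26-LSL-tdTomato mice given tamoxifen, and genotype, age, sex and tamoxifen were the same in all groups. In these mice the p16 (Cdkn2a) promoter drives a Cre that acts only with tamoxifen, and the recombined tdTomato allele stays on in that cell and its progeny, so that p16-high cells are called Tom+ and p16-low cells Tom-. The labels give 4 groups of 1 library each, a Tom+ and a Tom- library labelled CD45- and another pair labelled CD45+, sorted after staining for CD45 and CD31, and the number of mice behind a library is not given in the sources used here. With 1 library per group no difference has a replicate check, and no groups were tested against each other, so what is compared is single libraries. Intervals are given at 95% and hold counting error only.

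The libraries held 64083756 to 139397501 UMIs in 3429 to 11255 barcodes, of which 1981 to 4818 were kept. Leukocytes and stroma were not parted by the CD45 labels: the library labelled CD45+ Tom- held 2258 cells in a gate for stromal progenitors, and CD8 T cells were found in both libraries labelled CD45-. Libraries also shared barcodes, 4394 of them between the 2 Tom- libraries, and 5 members had a barcode that is also in another library. The shares of gated and of Gzmk-positive cells are therefore given with and without shared barcodes.

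The members carried the markers of the label. Outside the gate, Cd3d stood at 705, 597, 746 and 637 UMIs per 1000000 (CPM). Sets of 4 values are given here and below in 1 order, the CD45- pair before the CD45+ pair and Tom+ before Tom- in each. Trac, the constant region of the alpha chain, stood at 413, 534, 656 and 471 CPM. Within the gate, 162 members held both Cd8a and Cd8b1, with a median of 5 UMIs of the pair per member and at most 24. Of Trac, Trbc1, Trbc2 and Cd3d together, the median member held 23 UMIs, 2 members held none and 5 held at most 2. Variable-region genes were thinly read: 63 members had a UMI of any of 163 Trav and Trbv genes, and Trbv12-2, the most counted, had 10 UMIs in 8 members.

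At the edge of the gate, 39 members had exactly 2 UMIs of Cd8a and Cd8b1, and 29 further cells failed only by having 1. The cells just inside had 529 CPM of Trac, 6281 of Ccl5 and 239 of Gzmk, and those just outside had 460, 5069 and 227. The sets just inside and just outside the threshold were therefore alike in these genes.

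A few members also carried other programmes. Class II transcripts were held by few of them: 6 members with 26, 30, 57, 75, 795 and 1504 UMIs of H2-Aa, H2-Ab1, H2-Eb1 and Cd74, the class II antigen presentation genes, held 83.2% of all such UMIs, while the others had a median of 2 and at most 15. Of these 6, 5 were in the library labelled CD45+ Tom- and 1 in the library labelled CD45- Tom-, and 2 members had 25 and 27 UMIs of Siglech, a plasmacytoid dendritic cell gene. A further 5 members held at least 10 UMIs of 8 cell cycle genes, the others at most 5. They numbered 1, 0, 1 and 3 in the 4 libraries, and 1 member of the library labelled CD45+ Tom+ held 153. Several values that turn on these members are given again without them.

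CD8 T cells were a smaller share of the kept cells in the Tom+ library of each pair. In CD45- Tom+ they were 32 of 4145 cells, or 0.772% (exact binomial interval 0.529 to 1.09), and in CD45- Tom- 53 of 4038, or 1.31% (0.985 to 1.71). In CD45+ Tom+ they were 18 of 1981 cells, or 0.909% (0.539 to 1.43), and in CD45+ Tom- 100 of 4818, or 2.08% (1.69 to 2.52). The Tom- share was 1.70 times the Tom+ share in the CD45- pair and 2.28 times in the CD45+ pair, and the order held under all 8 settings tried in both pairs. With shared barcodes left out the shares were 0.924%, 2.10%, 0.972% and 2.99%. A share depends on every other cell sorted into a library.

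Among T cells the order of the libraries differed from that. CD4 T cells were gated on any UMI of Cd4 and none of Cd8a and Cd8b1, with the other limits the same. They were 29, 74, 10 and 83 cells. The Cd4 threshold was thus lower than that for Cd8a and Cd8b1 in CD8 members, and its part in these shares was not tested. CD8 T cells were 52.5% (39.3 to 65.4) of both kinds in the library labelled CD45- Tom+, 41.7% (33.0 to 50.8) in CD45- Tom-, 64.3% (44.1 to 81.4) in CD45+ Tom+ and 54.6% (47.1 to 62.0) in CD45+ Tom-. The CD8 part was higher in the Tom+ library of each pair, with intervals that overlap, and without shared barcodes it was 52.5%, 40.7%, 63.0% and 54.7%. Natural killer (NK) cells, gated on Ncr1 and Klrb1c without Cd3e and Cd3g, were 0.555%, 0.198%, 0.707% and 0.332% of kept cells, higher in the Tom+ library of each pair, and 0.664%, 0.336%, 0.743% and 0.483% without shared barcodes.

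**Figure D1:**
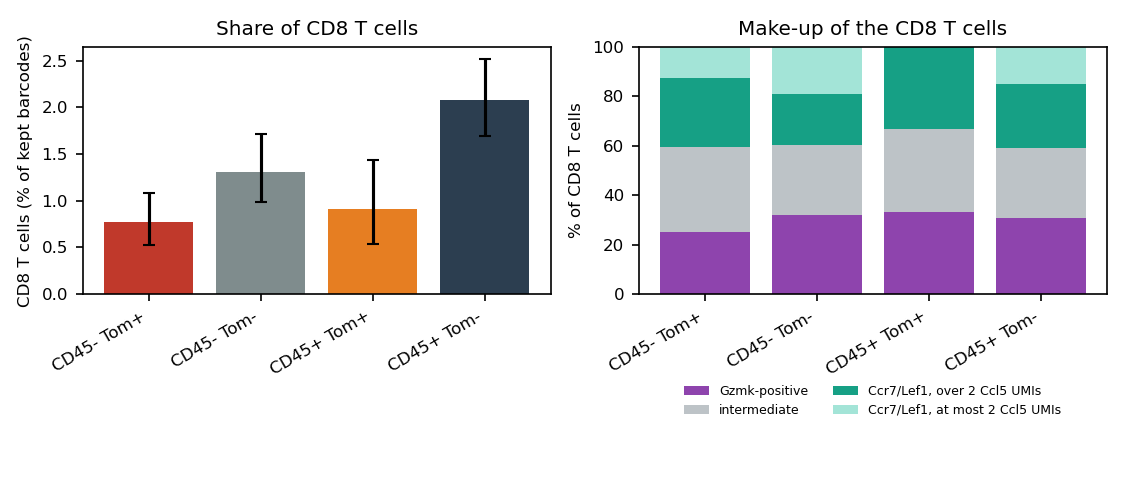
Left, CD8 T cells as a percentage of kept cells in each library, with exact binomial 95% intervals; right, make-up of the CD8 T cells of each library as percentages stacked to 100. The Tom- bars at 1.31% and 2.08% stand above the Tom+ bars at 0.772% and 0.909%, while Gzmk-positive cells take 25% to 33.3% of every stack.

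Granzyme K divided the members. Gzmk-positive cells, with at least 2 Gzmk UMIs, were 62 of 203 members or 30.5%. Ccr7/Lef1 cells, with no Gzmk UMI and at least 2 UMIs of Ccr7 and Lef1 together, were 81 or 39.9%, and 60 intermediate cells or 29.6% met neither rule. The name naive was not given to the second set, since its members were mixed: 26 had no Ccl5 UMI and 48 had more than 10, with 4 between 3 and 10. It was therefore also divided, after these values were seen, into 29 Ccl5-low cells with at most 2 Ccl5 UMIs and 52 Ccl5-high cells with 3 to 127. Near the thresholds, 30 members had 1 Gzmk UMI and 19 had exactly 2, and 12 members without Gzmk had 1 UMI of Ccr7 and Lef1 and 9 had exactly 2. Of the Gzmk-positive cells, 16 also had at least 2 UMIs of that pair.

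The Gzmk-positive share did not part Tom+ from Tom- libraries beyond counting error. It was 25% (11.5 to 43.4) in CD45- Tom+, 32.1% (19.9 to 46.3) in CD45- Tom-, 33.3% (13.3 to 59.0) in CD45+ Tom+ and 31% (22.1 to 41.0) in CD45+ Tom-. Every interval overlapped the others, and the order in the CD45+ pair was not stable, with Tom+ below Tom- in 3 of 10 settings tried against 10 of 10 in the CD45- pair. Without shared barcodes the shares were 25%, 30%, 35.3% and 31.3%. With 18 to 100 cells the intervals are wide, and the size of difference they could show was not tested. Gzmk stood at 95.2, 195, 143 and 147 CPM, against 0 to 3.41 in B cells, which should lack it. Unlike the share, this level was apart in the CD45- pair, with intervals of 63.7 to 137 in Tom+ and 154 to 243 in Tom-. In the CD45+ pair the intervals overlapped, at 91.7 to 213 and 123 to 175. After thinning each cell to 2000 UMIs, 15.6%, 28.3%, 27.8% and 25% of members had a Gzmk UMI, and 43.8%, 50.9%, 50% and 42% before thinning, against at most 2.19% of B cells. Ccl5-low cells were 4, 10, 0 and 15 members, so none of the 18 members in the library labelled CD45+ Tom+ was one, which allows a share of up to 18.5%.

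Promoter sequences of Gzmk, which made the sets, and of 3 genes that differed between them are shown so that the letters near each start can be read beside the values. They are the 250 bases before the RefSeq start on GRCm38.p6, written 5′ to 3′ on the strand of the gene, and capitals mark matches to 3 short motifs searched on both strands. These were GGTGTGA of T-box factors such as Eomes, TGTGGT of RUNX factors (ACCACA where it lies on the other strand) and CTTTGA of TCF and LEF factors, which 3.33%, 14.0% and 13.8% of 32851 RefSeq promoter windows of that length hold. Gzmk lies at chr13:113180966-113181215 (minus strand), Nkg7 at chr7:43436888-43437137 (plus strand), Ly6c2 at chr15:75111972-75112221 (minus strand) and Satb1 at chr17:51833291-51833540 (minus strand).
Gzmk: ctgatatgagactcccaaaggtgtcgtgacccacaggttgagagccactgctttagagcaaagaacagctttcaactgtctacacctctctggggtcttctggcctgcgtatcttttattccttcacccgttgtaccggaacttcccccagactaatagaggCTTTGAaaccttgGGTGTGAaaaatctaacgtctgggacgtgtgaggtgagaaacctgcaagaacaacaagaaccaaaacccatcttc
Nkg7: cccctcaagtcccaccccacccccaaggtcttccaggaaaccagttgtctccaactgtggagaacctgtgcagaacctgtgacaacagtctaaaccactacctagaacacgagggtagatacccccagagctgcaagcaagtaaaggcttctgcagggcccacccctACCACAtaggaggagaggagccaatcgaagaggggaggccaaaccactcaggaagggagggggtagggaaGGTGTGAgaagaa
Ly6c2: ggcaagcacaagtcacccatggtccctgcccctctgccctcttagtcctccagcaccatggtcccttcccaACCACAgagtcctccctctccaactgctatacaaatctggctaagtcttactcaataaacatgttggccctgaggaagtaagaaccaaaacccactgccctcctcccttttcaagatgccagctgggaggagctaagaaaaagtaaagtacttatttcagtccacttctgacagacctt
Satb1: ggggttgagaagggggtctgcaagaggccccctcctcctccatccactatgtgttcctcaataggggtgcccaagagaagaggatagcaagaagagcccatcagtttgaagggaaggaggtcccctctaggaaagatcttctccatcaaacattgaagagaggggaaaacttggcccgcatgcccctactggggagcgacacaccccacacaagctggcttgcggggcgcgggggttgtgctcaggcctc
Gzmk and Nkg7 had a T-box match each, 75 to 69 and 13 to 7 bases before the start. Gzmk also had a TCF/LEF match 88 to 83 bases before it, Nkg7 a RUNX match on the other strand and Ly6c2 a RUNX match 179 to 174 bases before the start on the other strand. The window of Satb1, 1 of 5 RefSeq starts, held none of the 3. The windows of Eomes, which was also higher in Gzmk-positive cells, and of Igfbp4 were searched as well, are not shown and held none. Ly6c2 has 2 entries, of which 1 is shown. A match is a string of letters and does not show binding.

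Gzmk-positive cells were richer in chemokine, Eomes, Tox and Maf transcripts, and Ccr7/Lef1 cells in Satb1, Klf2 and Ly6c2. The library labelled CD45+ Tom- was used for counts of genes, since it alone held at least 20 cells of both sets (31 and 41). Of 2612 genes whose mean CPM there reached 50, 9.72% were at least 2-fold higher in Gzmk-positive cells and 3.1% at least 2-fold lower, with the median of all genes at a log2 ratio of 0.24.

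Ccl5, a chemokine that T cells make, stood at 7506 CPM in Gzmk-positive and 3073 in Ccr7/Lef1 cells of the library labelled CD45- Tom+, at 10026 and 2456 in CD45- Tom-, at 7384 and 2814 in CD45+ Tom+ and at 11297 and 3039 in CD45+ Tom-. The log2 ratio in the last library was 1.89 (1.80 to 1.99), and the sets were apart in the same direction in all 4 libraries. Nkg7, a granule membrane protein of killer cells, stood at 1677 and 850, 1699 and 541, 2049 and 723, and 1828 and 636 CPM, with a log2 ratio of 1.52 (1.30 to 1.75) in the last. Ccl4, another chemokine, had a log2 ratio of 1.99 (1.44 to 2.59) in that library. Ifng, the macrophage-activating cytokine, stood at 63.9 and 42.5, 126 and 5.82, 238 and 0, and 111 and 4.73 CPM, with a log2 ratio of 4.26 (2.55 to 7.68) in the last. Of 6 cytokine and chemokine genes tested there, 4 were past 2-fold upward and none downward, with a median of 1.57.

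The killing apparatus was less divided. Of 7 granule genes tested, 2 were past 2-fold upward, 1 downward, and the median log2 ratio was 0.56. Gzmk itself is left out as the gene that made the sets. Gzmm, granzyme M, was lower in Gzmk-positive cells (35.6 against 102 CPM in the library labelled CD45+ Tom-), and Fasl, the death ligand, was higher (116 against 54.4). Gzma and Gzmb, the granzymes of armed killer cells, were scarce in the members: Gzma stood at 8.76 CPM at most in any set of members, Gzmb at 43.8 at most, and Gzmc was not counted in any member.

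Several transcription factors were far apart between the sets. Tox, a factor of persistent stimulation, stood at 367 CPM in Gzmk-positive and 24.3 in Ccr7/Lef1 cells in the library labelled CD45- Tom+, at 440 and 34.9 in CD45- Tom-, at 786 and 10.9 in CD45+ Tom+ and at 396 and 47.3 in CD45+ Tom-. Its log2 ratio was 3.04 (2.35 to 3.84) in the last library. Maf, a factor for IL-10 and other cytokine genes, stood at 240 and 18.2, 409 and 0, 619 and 21.9, and 325 and 16.5 CPM, with a log2 ratio of 4.20 (3.18 to 5.66). Eomes, a T-box factor of effector and memory cells, stood at 559 and 200, 503 and 69.8, 643 and 219, and 529 and 75.6 CPM, with a log2 ratio of 2.79 (2.23 to 3.42). Each of the 3 was higher in the Gzmk-positive cells of all 4 libraries. Tbx21 (T-bet), the other T-box factor of effector cells, was low in both sets, at 44.5 and 37.8 CPM in the library labelled CD45+ Tom-. Nr4a2, an orphan nuclear receptor induced by receptor signalling, stood at 575 and 219, 723 and 69.8, 1739 and 252, and 689 and 70.9 CPM, with a log2 ratio of 3.26 (2.71 to 3.90). Tox and Nr4a2 were counted on the checkpoint list given next. Of 8 other transcription factors of CD8 fate tested, Maf and Eomes among them, 3 were past 2-fold upward and 1 downward, with a median of 0.43.

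Most checkpoint genes tested were within 2-fold between the sets, while Ctla4 was higher in Gzmk-positive cells than in the Ccr7/Lef1 set as a whole. Pdcd1 and Lag3 were low, and higher in Gzmk-positive than in Ccl5-high cells. Of 7 genes tested on the checkpoint list, 3 were past 2-fold upward, none was past it downward, and the median log2 ratio was -0.01. The 3 were Ctla4 and the factors Tox and Nr4a2 of the paragraph before, which that list also holds. Ctla4, an inhibitory receptor for CD80 and CD86, stood at 311 and 118 CPM in the library labelled CD45+ Tom-. The Ccr7/Lef1 set was mixed in it. Its Ccl5-low cells, given below as sums over the libraries, were not lower than that Gzmk-positive value. Pdcd1, the gene of PD-1, summed to 56.9 CPM in all Gzmk-positive cells and Lag3 to 41.6, against 11.4 and 1.63 CPM in Ccl5-high Ccr7/Lef1 cells. Their values in Ccl5-low cells are not given here.

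Genes of recirculation were higher in the Ccr7/Lef1 cells beyond the genes that chose them. Satb1, a chromatin organiser of T cells, stood at 63.9 CPM in Gzmk-positive and 553 in Ccr7/Lef1 cells of the library labelled CD45- Tom+, at 110 and 786 in CD45- Tom-, at 0 and 536 in CD45+ Tom+ and at 156 and 792 in CD45+ Tom-. Its log2 ratio was -2.33 (-2.89 to -1.84) in the last library. Klf2, which drives the egress receptor S1pr1, stood at 687 and 1124, 252 and 983, 214 and 733, and 374 and 1347 CPM, with a log2 ratio of -1.84 (-2.20 to -1.52). S1pr1 had a log2 ratio of -2.03 and Il7r, the IL-7 receptor, of -1.19, whereas Tcf7, the factor TCF-1 of self-renewing T cells, had -0.58 (-1.001 to -0.192). Dapl1, a gene of naive CD8 T cells, stood at 47.9 and 310, 0 and 46.6, 0 and 21.9, and 0 and 113 CPM, so that it was counted in the Gzmk-positive cells of 1 library alone. Of 11 naive and memory-precursor genes tested besides Ccr7 and Lef1, 10 were past 2-fold downward and none upward, with a median of -1.86.

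Ly6c2, whose reads can be shared with its near-identical neighbour Ly6c1 and are thus uncertain, stood at 447 and 1160 CPM in the library labelled CD45- Tom+, 23.6 and 774 in CD45- Tom-, 47.6 and 1401 in CD45+ Tom+ and 173 and 990 in CD45+ Tom-. Its log2 ratio was -2.50 (-3.03 to -2.04) in the last library. Among 8 NK receptor and virtual memory genes tested, 1 was past 2-fold upward and 2 downward. Of 9 chemokine and egress receptors tested, a list without S1pr1, 3 were past 2-fold upward and none downward. Itga4, the integrin chain of VLA-4, was among the 3, at 719 and 109, 645 and 140, 429 and 54.7, and 543 and 118 CPM. Ccr2, a chemokine receptor of inflammatory cells, was another, at 31.9 and 140, 118 and 17.5, 95.3 and 65.7, and 294 and 30.7 CPM, and so lay the other way in the library labelled CD45- Tom+. Of 19 T cell receptor signalling genes, 4 were past 2-fold upward and none downward, with a median of 0.66.

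Part of this contrast rested on few members. Of the 5 cycling members, 2 were Gzmk-positive cells of the library labelled CD45+ Tom-, where Mki67, a proliferation gene, stood at 133 CPM in Gzmk-positive cells and had no UMI in Ccr7/Lef1 cells. Top2a, another proliferation gene, had a log2 ratio of 4.42 (2.73 to 7.83) there, and Hist1h2ap, a histone gene of dividing cells, of 4.60 (3.52 to 6.19). Without the class II and cycling members these were 2.28 and 0.25. The values of Tox, Maf, Eomes, Ly6c2 and Satb1 were then 3.08, 4.70, 2.82, -2.34 and -2.20. With both kinds of members left out, the gaps in Top2a and Hist1h2ap were thus smaller and those in these 5 genes remained past 2-fold. Depth also differed, since the median member held 6459.5 UMIs in the Gzmk-positive set and 9315 in the Ccr7/Lef1 set, and its part in the result was not tested.

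**Figure D2:**
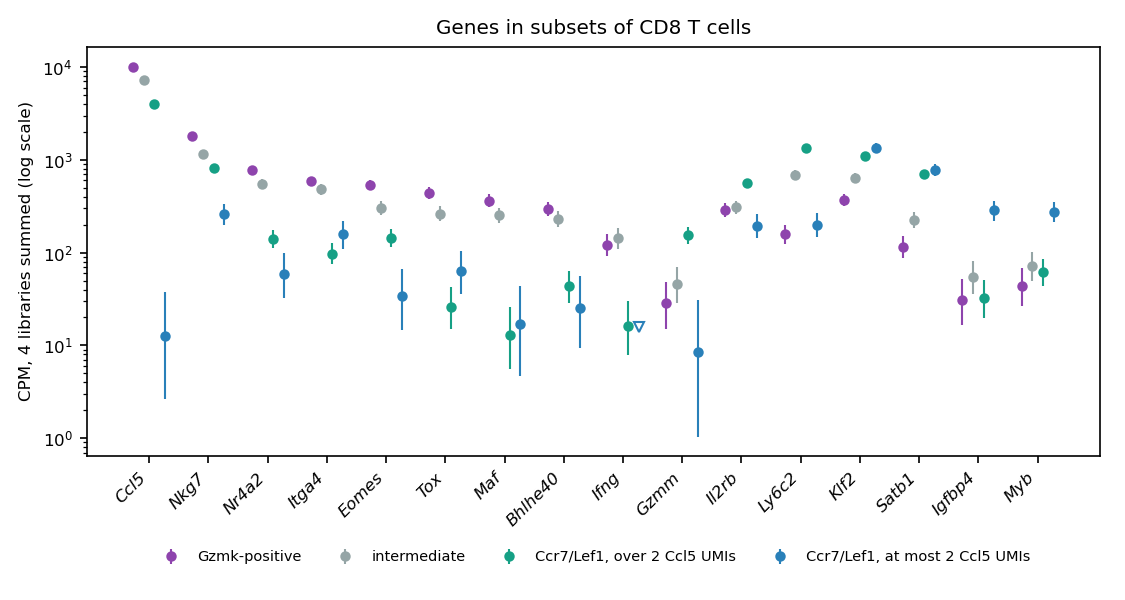
Summed CPM over the 4 libraries on a log scale for named genes in Gzmk-positive, intermediate, Ccl5-high and Ccl5-low members, with exact Poisson 95% intervals; open triangles are upper limits where no UMI was counted. Tox, Maf, Eomes and Nr4a2 are high in the Gzmk-positive and intermediate cells, Ly6c2 is highest in the Ccl5-high cells at 1339 CPM, and Igfbp4 is highest in the Ccl5-low cells at 284 CPM.

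In genes whose levels followed Gzmk, the intermediate cells lay nearer to the Gzmk-positive than to the Ccr7/Lef1 cells. Summed over the libraries, Ccl5 stood at 10064 CPM in Gzmk-positive, 7189 in intermediate, 4011 in Ccl5-high and 12.7 in Ccl5-low cells. Tox stood at 440, 263, 26.0 and 63.7 CPM and Maf at 364, 252, 13.0 and 17.0 in the same order. Itga4 stood at 585, 479, 97.5 and 157 CPM and Bhlhe40, a factor of tissue-adapted T cells, at 296, 233, 43.9 and 25.5. Intermediate cells thus took values between the other sets, somewhat closer to the Gzmk-positive end in these genes. All of these genes are among the 10 most like Gzmk in the same members, and 30 of the intermediate cells held 1 Gzmk UMI. The nearness was thus partly set by the choice of genes and thresholds. Genes of the Ccr7/Lef1 end are not given in this paragraph.

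Ccl5-high and Ccl5-low Ccr7/Lef1 cells differed in cytotoxic and NK receptor genes while sharing Satb1 and Klf2. Of 2423 genes tested on sums over the libraries, 4.37% were at least 2-fold higher in the Ccl5-high cells and 3.18% at least 2-fold lower. Satb1 stood at 696 CPM in Ccl5-high and 772 in Ccl5-low cells and Klf2 at 1094 and 1350, with log2 ratios of -0.15 and -0.30. Of 11 naive and memory-precursor genes tested none was past 2-fold upward and 3 were downward, with a median of -0.25.

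The Ccl5-high cells carried more transcripts from the list of NK receptor and virtual memory genes. Virtual memory cells are the antigen-independent memory cells of mice. Whether the Ccl5-high cells had met antigen was not tested. Ly6c2 stood at 1339 CPM against 199 in Ccl5-low cells, a log2 ratio of 2.73 (2.32 to 3.203). Il2rb, the receptor chain that binds IL-15, stood at 557 against 195, and Eomes at 145 against 34.0, a log2 ratio of 2.01 (1.05 to 3.35). Gzmm stood at 154 against 8.49 CPM, a log2 ratio of 3.87 (2.29 to 7.25), and Nkg7 at 824 against 259, a log2 ratio of 1.66 (1.28 to 2.08). Of 8 NK receptor and virtual memory genes tested, 7 were past 2-fold upward and none downward, with a median of 2.12, and of 4 granule genes 3 were upward and none downward. Klrk1, the activating receptor NKG2D, had 91 UMIs in Ccl5-high cells and none in Ccl5-low cells, so it was at least 11.6-fold higher against the floor of 3 counts over the set. Fasl, with 42 UMIs and none, was at least 5.36-fold higher by the same floor.

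The Ccl5-low cells carried more Igfbp4, Myb, S1pr1 and Ctla4. Igfbp4, an insulin-like growth factor binding protein found in naive T cells, stood at 284 CPM against 32.5, a log2 ratio of -3.10 (-3.93 to -2.39) for Ccl5-high over Ccl5-low cells. Myb, a factor of lymphoid progenitors and stem-like T cells, stood at 276 against 61.8 CPM, and S1pr1 at 450 against 216. Ctla4 stood at 327 against 61.8 CPM, a log2 ratio of -2.39 (-3.00 to -1.83), and was found in 75.9% of Ccl5-low cells and 36.5% of Ccl5-high cells. Fcer1g, a signalling chain of Fc receptors in myeloid and NK cells, stood at 67.9 against 14.6 CPM. Without the class II members it stood at 18.1 and 14.6, while Igfbp4, Myb and Ctla4 stood at 245, 295 and 336 CPM in the Ccl5-low cells. The class II members thus held most of the Fcer1g difference, and the other 3 genes lay further apart than 2-fold without them. All 10 macrophage markers had UMIs in both sets and summed to 1133 CPM in Ccl5-low and 431 in Ccl5-high cells, and their part in the result was not tested.

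The genes whose levels followed Gzmk most closely from cell to cell were those of the same contrast. Over 203 members and 6389 genes, on depth-normalised log values, the highest Spearman correlations with Gzmk were those of Nkg7 (0.62), Ccl5 (0.57), Tox (0.57), Eomes (0.55) and Nr4a2 (0.54), followed by Itga4, Fyn, Maf, H2-K1 and Bhlhe40 (0.52 to 0.44). The 10 lowest were those of Satb1 (-0.60), Ly6c2 (-0.50), S1pr1 (-0.48), Ssh2 (-0.48) and 6 ribosomal protein genes (-0.51 to -0.48). The cells share libraries and differ in depth, so these values describe the members and carry no p.

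The next comparison asked how CD8 T cells of Tom+ libraries differed from those of Tom- libraries. Most T cell gene lists had medians close to even and few genes past 2-fold. NK receptor genes of the CD45+ pair had more, and the genes far apart in both pairs were mostly those of other cell types. Of 10 transcription factors tested in the CD45- pair, 1 was past 2-fold upward and 2 downward, against 0 of 9 in the CD45+ pair. Cytokine genes had 1 of 5 upward and then 0 of 5, and checkpoint genes 1 of 6 downward, Tox, and then 0 of 7. In the CD45- pair 1.91% of 2613 genes tested were at least 2-fold higher in Tom+ and 2.99% at least 2-fold lower, and in the CD45+ pair 3.82% of 2591 were higher and 3.13% lower. Of 2314 genes tested in both pairs, 1238 had the same sign. With immunoglobulin genes and Jchain taken out of the totals, the counts were 73 higher and 69 lower in the CD45- pair, against 50 and 78 with them, and 129 and 75 in the CD45+ pair, against 99 and 81.

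Effector genes were near even between Tom+ and Tom- members. Ccl5 stood at 5358, 6652, 5100 and 5829 CPM, log2 ratios of Tom+ over Tom- of -0.31 in the CD45- pair and -0.19 in the CD45+ pair. Nkg7 stood at 1089, 1081, 1300 and 1043 CPM and Eomes at 295, 300, 346 and 237. Of 9 granule genes tested in each pair, none was past 2-fold upward and 1 (Gzmk) downward in the CD45- pair, and 1 (Prf1) was upward and none downward in the CD45+ pair. Prf1 stood at 65.6, 84.9, 143 and 70.8 CPM, a log2 ratio of 1.02 (0.27 to 1.72) in the CD45+ pair and -0.37 in the other. The ratios of this gene thus had opposite signs in the 2 pairs, but counting error in the CD45- pair did not exclude an even level.

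Of 19 T cell receptor signalling genes outside the gate, none was past 2-fold in the CD45- pair and 1 was downward in the CD45+ pair. This was Trbc1, at 482, 661, 197 and 571 CPM, while Trbc2 stood at 991, 1118, 1348 and 1129, and reads of the 2 similar constant regions may be shared, so both are uncertain. Chemokine and egress receptors, again without S1pr1 and 9 tested in each pair, had medians of -0.28 and -0.26 with none past 2-fold in either pair. Interferon-stimulated genes had none past 2-fold of 7 and 6 tested, and of 15 dissociation and heat shock genes tested in each pair 1 was past it, Fos, upward in the CD45- pair.

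NK receptor and virtual memory genes differed more between the pairs. Of 10 tested in each, 2 were past 2-fold upward and none downward in the CD45- pair, and 1 was upward and 4 were downward in the CD45+ pair. Upward were Klrk1 and Ly6c2 in the first and Il18r1, an IL-18 receptor chain, in the second, at 72.2, 94.9, 209 and 102 CPM. The 4 were Klrk1, Fcer1g, Klrd1, the receptor chain CD94, at 91.9, 122, 59.7 and 129 CPM, and Klrc1, its inhibitory partner NKG2A, at 91.9, 89.9, 35.8 and 110. In the library labelled CD45+ Tom+ 1 UMI was 5.97 CPM, so the values of Klrk1, Klrd1 and Klrc1 there rest on few UMIs. Fcer1g is not given again for this pair without the class II members, of which CD45+ Tom- held 5.

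Igfbp4, on the naive and memory-precursor list, was lower in Tom+ members of both pairs, at 19.7, 102, 5.97 and 87.6 CPM. Its log2 ratios of Tom+ over Tom- were -2.38 (-3.91 to -1.13) and -3.88 (-9.20 to -1.36), the latter on 1 UMI in the Tom+ library and with a mean CPM under 50, so that it is not among the genes tested in that pair. Both Tom+ libraries lay under both Tom- libraries, and both also had the lower share of Ccl5-low cells, in which Igfbp4 was highest (12.5% and 0% against 18.9% and 15%). Whether those shares account for it was not tested. Of the naive and memory-precursor genes, 1 of 13 was past 2-fold upward and 2 downward in the CD45- pair, and 0 of 10 in the CD45+ pair. Satb1 stood at 354, 489, 304 and 461 CPM, under 2-fold in each pair but lower in both Tom+ libraries.

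Ly6c2 was higher in Tom+ members of both pairs, at 1040, 484, 841 and 681 CPM, log2 ratios of 1.10 (0.84 to 1.37) and 0.30. Klrk1 stood at 220, 99.8, 29.8 and 157 CPM and Tox at 118, 245, 292 and 190, each with opposite signs in the pairs. Dapl1 stood at 177, 19.97, 11.9 and 67.4 CPM, also with opposite signs. Il10, an anti-inflammatory cytokine, was higher in Tom+ members of both pairs, read at 32.8, 4.99, 29.8 and 4.49 CPM in 16 members, from 10, 2, 5 and 4 UMIs.

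Cell cycle genes were higher in Tom+ members of the CD45+ pair, on the counts of 1 cell. Of 9 tested, 6 were past 2-fold upward and none downward, with a median of 2.34, against 1 of 4 in the CD45- pair. Stmn1, which regulates microtubules in dividing cells, stood at 135, 44.9, 394 and 53.9 CPM. Without the 5 cycling members its log2 ratios were 0.35 and -0.60.

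Immunoglobulin genes, which plasma cells make and T cells do not, were higher in the Tom+ members of both pairs. Igkc, the kappa constant region, stood at 29387, 1865, 21302 and 1509 CPM in CD8 T cells, and every member held a UMI of it. The immunoglobulin genes and Jchain together were 5.17%, 0.385%, 3.65% and 0.308% of all UMIs of the members. The summed level of 10 plasma cell and immunoglobulin genes was 51044, 3774, 36012 and 3051 CPM in the members and 258783, 14874, 262642 and 19771 CPM over all kept cells. The 4 libraries thus fell in the same Tom+ above Tom- order in the members as in the whole library. All 5 of the tested genes of this list outside the gate were past 2-fold upward in each pair. Xbp1, the plasma cell secretory factor, stood at 184, 59.9, 149 and 70.8 CPM and Txndc5, an endoplasmic reticulum protein, at 259, 42.4, 143 and 55.1. Ly6d, a B lineage surface gene, stood at 128, 9.98, 101 and 31.5 CPM, while a list of B cell markers summed to only 49.2, 19.97, 35.8 and 28.1.

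Stromal genes lay the other way. Dcn, a proteoglycan of fibroblasts, stood at 39.4, 165, 53.7 and 167 CPM and Gsn, a stromal actin-severing protein, at 23.0, 130, 11.9 and 103. Of 4 progenitor and stromal markers tested all were past 2-fold downward in each pair, with medians of -1.87 and -1.56. The list summed to 164, 691, 167 and 674 CPM in the members and to 6104, 32092, 6074 and 30576 over all kept cells, again in the same order. Macrophage markers summed to 922, 599, 680 and 607 CPM in the members and to 8126, 5586, 7882 and 5932 over all kept cells, with a Tom+ library above the Tom- library in each pair of both. The part of transcripts from other cells in these differences was not tested.

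Class II genes were past 2-fold downward in Tom+ members in both pairs, 4 of 4 each time, with medians of -3.30 and -3.48. H2-Aa stood at 49.2, 552, 41.8 and 472 CPM and Cd74, the invariant chain, at 220, 884, 179 and 941. The 6 class II members, none of them in a Tom+ library, held most of this: without them the log2 ratios of H2-Aa were -0.68 and -0.80, and those of H2-Eb1 0.09 and -0.43.

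**Figure D3:**
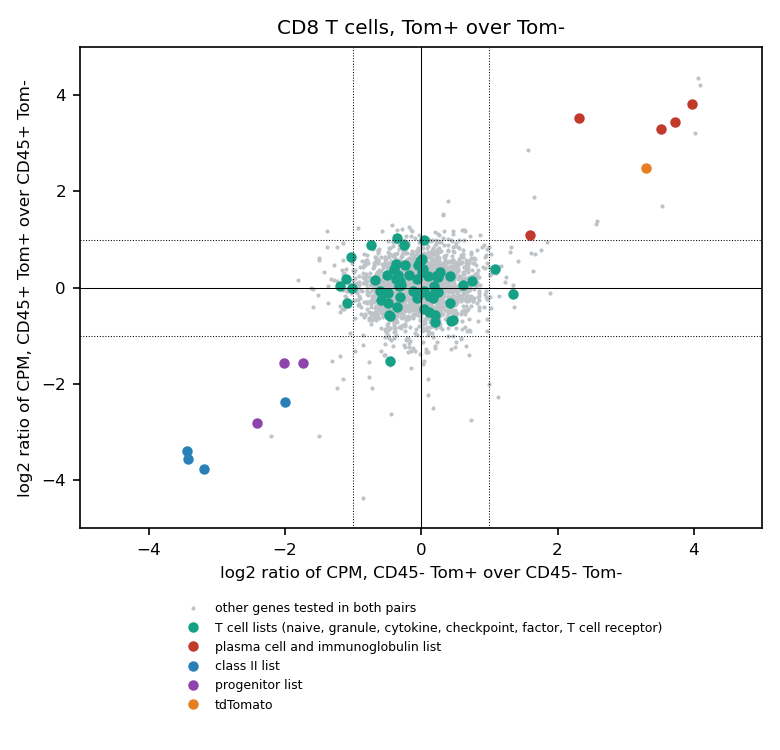
Log2 ratio of CPM, Tom+ over Tom-, in CD8 T cells for genes tested in both pairs, with the CD45- pair on the horizontal and the CD45+ pair on the vertical axis and coloured points for named groups. Immunoglobulin and plasma cell genes sit at the upper right, class II and stromal genes at the lower left, and most genes of the T cell lists within the dotted lines at 2-fold.

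The reporter and the cyclin-dependent kinase inhibitors were read in the same cells. tdTomato, on which the sort rested, stood at 623 CPM (exact Poisson interval 538 to 719) in CD8 T cells of the library labelled CD45- Tom+, 62.4 (40.4 to 92.1) in CD45- Tom-, 531 (426 to 653) in CD45+ Tom+ and 94.4 (75.3 to 117) in CD45+ Tom-. The Tom+ level was 9.99 times the Tom- level in the CD45- pair and 5.63 times in the CD45+ pair, in the direction of the labels. Cells with a tdTomato UMI were 87.5%, 28.3%, 94.4% and 41% of members, and 62.5%, 11.3%, 50% and 11% after thinning to 2000 UMIs.

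Within the Tom- libraries tdTomato was higher in CPM in CD8 T cells than in progenitors. Progenitors, gated on stromal genes, stood at 9.63 CPM in the CD45- and 11.3 in the CD45+ Tom- library, so CD8 T cells were 6.48 times and 8.32 times higher, log2 ratios of 2.70 (2.06 to 3.27) and 3.06 (2.71 to 3.38). Macrophages of these libraries stood at 24.2 and 24.0 CPM, B cells at 38.7 and 21.5, CD4 T cells at 62.5 and 99.5 and NK cells at 122 and 197. CD8 and CD4 T cells thus did not differ beyond counting error there, at ratios of 0.998 and 0.949. In the Tom+ libraries CD8 T cells were 0.955 and 0.815 times the progenitor level. The median member held 6646 to 8302.5 UMIs against 24705 to 33730.5 in progenitors and 4875 to 5963.5 in B cells, and the part of depth in these values was not tested.

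**Figure D4:**
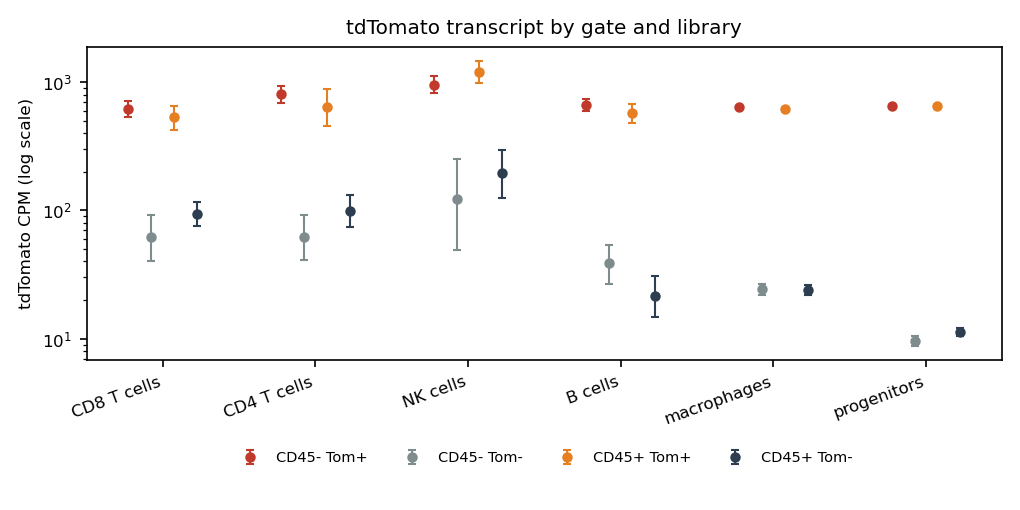
tdTomato in CPM on a log scale for each gate and library, with exact Poisson 95% intervals. The Tom+ libraries stand at 531 CPM or more in every gate, while in the Tom- libraries the CD8 T cells stand at 62.4 and 94.4 CPM and the progenitors at 9.63 and 11.3 CPM.

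Cdkn2a, whose promoter drives the Cre, had no UMI in CD8 T cells of any library, which allows up to 9.84, 7.49, 17.9 and 3.37 CPM. Progenitors stood at 13.9, 8.27, 15.7 and 9.71 CPM, so a level like theirs lay within what 0 counts allow in the library labelled CD45+ Tom+. In CD45- Tom- it lay above that limit of 3 counts but within the exact Poisson limit of 9.21 CPM, and in the other 2 it lay above both. Cdkn2d (p19-INK4d) stood at 45.9, 37.4, 113 and 47.2 CPM and was the 1 of 3 inhibitor genes tested past 2-fold upward in the CD45+ pair, with none of 3 in the CD45- pair. Cdkn1a (p21) stood at 6.56, 32.5, 41.8 and 20.2 CPM. The p21 gene thus lay under 50 CPM in every library, with opposite signs in the pairs.

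TGF-beta genes, the pathway the study followed from macrophages to progenitors, were near even in the members. Tgfb1, the ligand, stood at 78.8, 105, 47.7 and 87.6 CPM, Tgfbr2, the receptor, at 128, 175, 143 and 129, and Smad7, the feedback inhibitor, at 289, 322, 412 and 272. None of 6 and 5 genes tested was past 2-fold. Tissue residency genes, 5 tested in each pair, had 1 past 2-fold upward in the CD45- pair (Rgs2) and none in the CD45+ pair. Cd69, an activation and retention marker, stood at 447 CPM in Gzmk-positive cells and 457 and 662 in Ccl5-high and Ccl5-low cells. Itgae (CD103), the residency integrin of epithelia, was not counted in Gzmk-positive cells and stood at 13.2 CPM in intermediate cells, and Zfp683 (Hobit) was not counted in any member.

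Set beside CD4 T cells of the same libraries, CD8 T cells carried more Ly6c2, NK receptor and cytotoxic transcripts. By the median log2 ratio over the 4 libraries, 1.29% of 2707 genes were at least 2-fold higher in CD8 T cells and 3.84% at least 2-fold lower. Ly6c2 led the higher genes at 3.68, and Klrk1 (3.29), Klrd1 (2.82) and Prf1 (2.72) were among the others. Ccl5 had a median of 1.93 with a range over libraries of 1.51 to 2.24, and Nkg7 1.68 with a range of 1.08 to 2.28. Gzmk was read in both, at 85.5, 108, 69.3 and 121 CPM in CD4 T cells. The lowest were Cd40lg (-6.63), the helper ligand for B cells, Tnfrsf4 (-5.69), the receptor OX40, and Areg (-5.55), a growth factor of tissue regulatory T cells, with Gata3, the type 2 factor, at -2.49.

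Beside NK cells, CD8 T cells were higher in T cell receptor genes and lower in most granule and Ly49 genes. Here 2.55% of 2785 genes were at least 2-fold higher and 7.83% at least 2-fold lower. Cd3d (6.34) and Trac (5.24) led, with Themis (4.99), a thymic selection gene, Bcl11b (3.38), a T lineage factor, and Il7r (3.08) among the others. Gzma, granzyme A, stood at 3.28, 2.50, 5.97 and 5.62 CPM in CD8 T cells against 3170, 1971, 4496 and 3531 in NK cells, a median of -9.10. Klra8 (-6.32) and Klra7 (-5.41), Ly49 receptors of a family with near-identical copies, were also lower, as was Prf1 (-2.64). Of 10 granule genes tested 7 were past 2-fold lower in CD8 T cells and 1, Gzmk, was higher, while Nkg7 (-0.59) was within 2-fold. Every NK library held at most 23 cells.

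**Figure D5:**
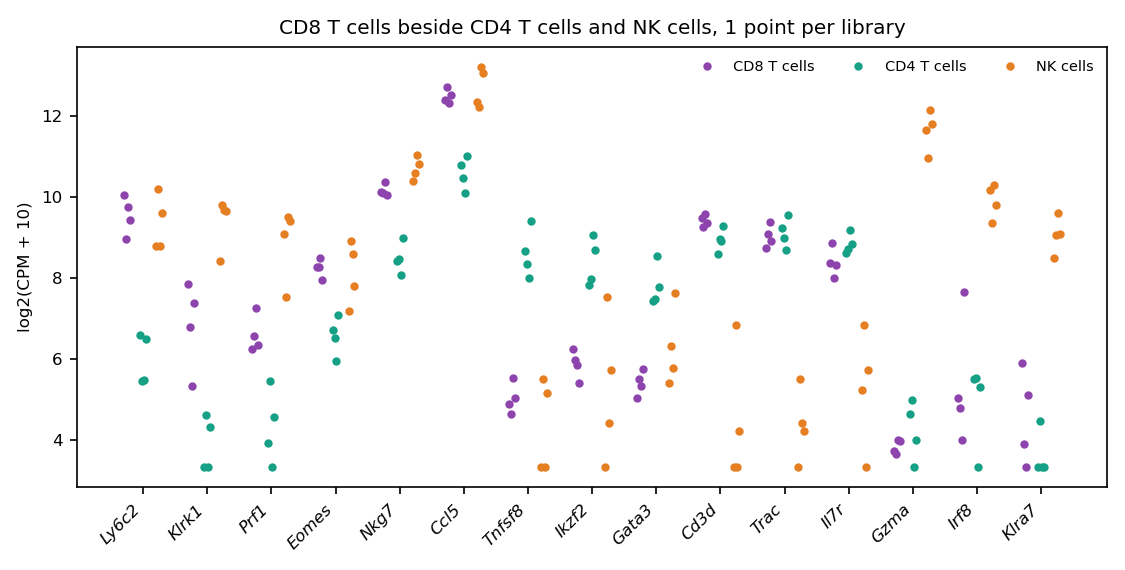
Log2(CPM + 10) of named genes in CD8 T cells, CD4 T cells and NK cells, 1 point per library. Gzma stands at 1971 CPM or more in the NK cells and at most 5.97 in the CD8 T cells, while the Cd3d and Trac points of the CD8 T cells lie above those of the NK cells in every library.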

How the data were processed

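The authors digested the tissue with Liberase, sorted the cells, prepared Chromium droplet 3′ libraries and counted UMIs with Cell Ranger 3.0.2 on mm10 extended by a tdTomato row, per the submitters' processing notes. The deposited files hold raw whole-number UMI counts of 31054 features per barcode, and 0 columns of other samples. As in the study, a barcode was kept if it had more than 1000 but fewer than 7000 genes and a mitochondrial share below 8%. Doublets were kept, and removing Scrublet calls was an alternative. The Wilcoxon test over cells that the study ran was not used, since cells are not replicates.

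UMIs were summed per library and gate, scaled to CPM and compared as log2 ratios with conditional exact Poisson intervals (python 3.11.15, numpy 2.4.6, scipy 1.17.1, scanpy 1.11.5). Genes whose mean CPM reached 50 were tested, meaning counted as at least 2-fold apart or not, with 0.5 counts added. A count of 0 allows up to 3 counts. The computation was tested on simulated data.

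Members and gene lists were chosen with earlier results of these data known. The set of Ccr7/Lef1 cells was planned with a further gene that is not reported here, and was rebuilt on Ccr7 and Lef1 alone after seeing the data. The Ccl5 threshold, the class II and cycling thresholds and the B cell, macrophage and progenitor gates were chosen after seeing the data. Genes named are those of the lists, then the 10 highest and 10 lowest by mean log2 ratio over the pairs, the 15 highest and 15 lowest of each other contrast, and the 10 most like Gzmk. Trbv12-2 was picked after its values were seen. Promoters came from RefSeq for GRCm38.p6.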

Additional observations from a re-analysis of the deposited data

Results flagged for a closer look

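For 7 T cell genes the log2 ratio of Tom+ over Tom- lay above 0 in one pair and below 0 in the other, with both counting intervals clear of 0. With 1 library per group the difference between the pairs was not tested. The 7 were picked by this rule among genes of the lists with a mean CPM of at least 50 in both pairs. How many genes would meet it by counting error alone was not tested, and its share over all genes was not counted. Opposite signs were common, since of 2314 genes tested in both pairs only 1238 had the same sign. The intervals treat UMIs as independent, yet 1 cell held 31 of the 110 Trac UMIs in the library labelled CD45+ Tom+. Klrk1 also rests on few UMIs in that library. The ratios are given first for the CD45- and then for the CD45+ pair. They were -1.05 and 0.62 for Tox, 0.47 and -0.68 for Foxp1, a factor of quiescent T cells, and 1.14 and -2.40 for Klrk1. They were -0.74 and 0.88 for Themis, 0.43 and -0.71 for Klf2, and -0.37 and 0.48 for Trac. For Ccr2, a chemokine receptor of inflammatory cells, they were 0.70 and -0.92. Tox, Themis and Trac were thus lower in Tom+ members of the CD45- pair and higher in those of the CD45+ pair, and Foxp1, Klrk1, Klf2 and Ccr2 the other way.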

How the results depend on the processing

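Of 105 values under alternatives, 76 lay within counting error, or within 1.5 times for counts of genes, and 29 moved. The order of Tom+ and Tom- turned for the Gzmk-positive share of the CD45+ pair, 5.56% against 11% at 5 UMIs, 27.3% against 32.7% under a looser gate and 28.6% against 34.2% under a stricter one. Genes higher and lower in Tom+ turned from 50 and 78 to 73 and 69 without immunoglobulin genes in the CD45- pair, and from 99 and 81 to 97 and 103 under the looser limits below in the CD45+ pair. The alternatives on class II members, immunoglobulin genes, cycling members and single libraries, and shared barcodes for the CD4 and NK values, were chosen after seeing the data. The CD8 share moved when cells were thinned to 2000 UMIs (0.242%, 0.598%, 0.252% and 0.982%). With looser limits, 500 genes or more and a mitochondrial share below 20%, it was 0.490%, 0.913% and 1.504% in CD45- Tom+, CD45- Tom- and CD45+ Tom-. It was 0.507% in CD45- Tom+ and 1.58% in CD45+ Tom- under a stricter gate, and 2.10% and 2.99% in the Tom- libraries without shared barcodes. The Gzmk-positive share was 43.8%, 50.9% and 42% in those same 3 libraries at a threshold of 1 UMI. At 5 UMIs it was 3.13%, 11.3%, 5.56% and 11% in the 4, and 12.8% in CD45+ Tom- after thinning. Genes past 2-fold between Tom+ and Tom-, 128 and 180 in the 2 pairs, were 40 and 47 at a mean CPM of at least 100, 587 and 765 at 20, and 554 and 712 after thinning. Genes past 2-fold between Gzmk-positive and Ccr7/Lef1 cells, 335 in CD45+ Tom-, were 1028 in CD45+ Tom+, 651 in CD45- Tom+, 569 in CD45- Tom- and 214 in sums over the 4 libraries. The sets there hold as few as 6 cells, and the cause was not tested. Scrublet removal took 1 member. No paired analysis was possible because each group holds 1 library.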
